A study of Mus musculus with 8 samples.

Results

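The antioxidant and NRF2 target genes described here are 10 genes, Hmox1, Nqo1, Gclc, Gclm, Txnrd1, Srxn1, Sod1, Sod2, Cat and Gpx1, taken by gene symbol among the 22485 named genes of a mouse oligonucleotide array. They are measured by 12 spots among 33026 named spots, since Hmox1 and Cat have 2 spots each and the other genes have 1. RNA of the adrenal medulla was compared between SDHD-ESR mice, which carry 1 floxed and 1 null SdhD allele (SdhD flox/-) together with a tamoxifen-inducible Cre (Cre-ER), and +/- mice, which are SdhD flox/- without Cre. Each of the 8 arrays held RNA of 2 male mice labelled with Cy5, 4 arrays for SDHD-ESR and 4 for +/-. The Cy3 channel of every array held 1 pool of 8 +/+ mice (SdhD flox/+ without Cre), hereafter the +/+ pool. All mice were of the 129/SvJ background, were given 100 µg/g tamoxifen daily in 4 injections at 9 weeks of age, and were sampled 1 week after the first injection, at 10 weeks. Cre was present in SDHD-ESR mice and absent from both other genotypes, so an effect of Cre with tamoxifen cannot be told apart from the loss of SdhD. SdhD encodes a membrane anchor of mitochondrial complex II, and no source used here gives the promoter that drives Cre-ER. The medulla was separated from the cortex by dissection, so other cell types can be present, and in such tissue RNA fewer cells of a type and less RNA per cell cannot be told apart.

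NRF2, encoded by Nfe2l2, is a transcription factor that is held in the cytoplasm and sent for degradation by its sensor KEAP1. Oxidants and electrophiles modify KEAP1, NRF2 then accumulates, pairs with small MAF proteins and binds antioxidant response elements near genes for glutathione synthesis, thioredoxin recycling, quinone reduction and haem breakdown, while BACH1 competes for the same elements. Superoxide dismutases, catalase and glutathione peroxidase remove superoxide and peroxides directly, and complex II is one of the mitochondrial sites at which superoxide can form.

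The core of the antioxidant response element, TGACNNNGC, was searched on both strands of the RefSeq promoter windows, which run from upstream to shortly downstream of each annotated start. Of the 10 genes, 8 matched the promoter table, with 10 windows, and 4 windows held the core, while 12.4% of all 32851 windows held it. The matches in Gclm, Txnrd1 (1 of its 3 windows), Srxn1 and Sod1 are printed to show where the core lies in these windows. They are given on the gene's own strand with 10 flanking bases on each side. The core lies on the opposite strand in all 4, so it reads as its reverse complement, in capitals. A match is a description of letters and not a bound site.
Gclm, chr3:122245413-122245441 (GRCm38.p6, + strand), first core base at -134 from the start: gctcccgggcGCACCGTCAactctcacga
Txnrd1, chr10:82859104-82859132 (GRCm38.p6, + strand), first core base at -92: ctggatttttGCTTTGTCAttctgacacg
Srxn1, chr2:152105542-152105570 (GRCm38.p6, + strand), first core base at 29: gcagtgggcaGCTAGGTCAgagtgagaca
Sod1, chr16:90220696-90220724 (GRCm38.p6, + strand), first core base at -56: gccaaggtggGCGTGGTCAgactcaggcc

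Values are log2 ratios of the Cy5 sample to the +/+ pool, so 0 means the level of the pool and 1 means double that level. The deposited ratios were turned in sign, because the deleted gene is positive in SDHD-ESR as deposited. The base is not stated and was taken as 2, since 57.5% of the 200 most frequent deposited values are ratios of small whole numbers in base 2, against 10.0% in base 10 and fewer in base e. Some values were set aside before testing. Whole numbers, which make up 11.6% to 15.6% of values on the SDHD-ESR arrays and 9.54% to 13.9% on the +/- arrays, were treated as missing. On SDHD-ESR replicate 1 the values leave their places partway down the array. Its first 45.1% of lines are in register with the other arrays, its last 39.8% hold each spot's value 1 line further on, and the lines between are mixed.

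The shift was placed with spots whose ratio lies near 0 on the other arrays. In the aligned part, 86.5% of 222 spots lying within 0.01 of 0 on the 7 other arrays were also near 0 on SDHD-ESR replicate 1. In the shifted part this held for 9.36% of 203 such spots on the deposited line, and for 83.7% when values were moved back by 1 line. Of the 12 member spots, 5 lie in the aligned part and 7 in the shifted part. For these 7 the value of SDHD-ESR replicate 1 was left out, so that n = 3 there for SDHD-ESR, and the values as deposited and moved back are given beside the results they touch. The correlation between arrays over all spots was 0.12 to 0.42 with SDHD-ESR replicate 1 as deposited. Among the 7 other arrays the lowest was 0.19.

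**Figure D1:**
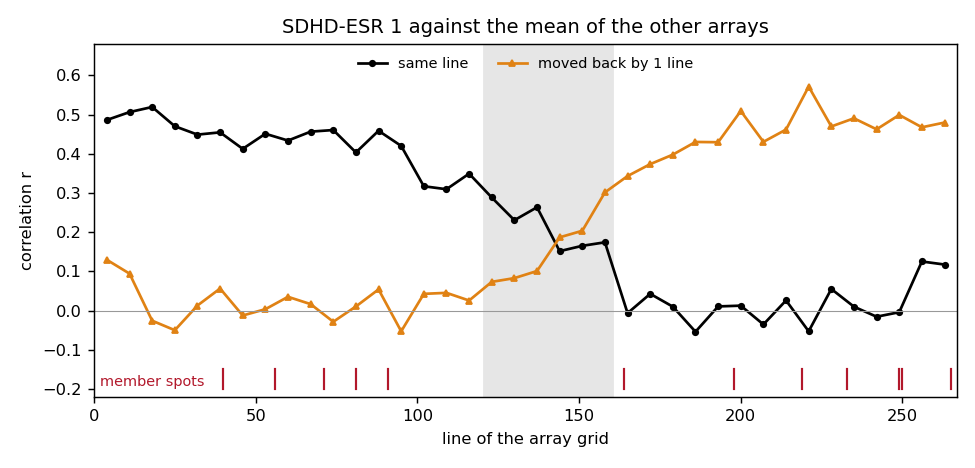
Correlation of SDHD-ESR replicate 1 with the mean of the 7 other arrays along the lines of the array, with values on the deposited line and with values moved back by 1 line; short ticks at the bottom mark the lines of the member spots. The same-line correlation is 0.44 in the aligned part and 0.02 in the shifted part, where the moved-back correlation is 0.45.

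Sdhd, the deleted gene, was measured first as a check of the labels. Its log2 ratio to the +/+ pool was -5.00, -6.19, -5.26 and -4.86 on the SDHD-ESR arrays, against -1.10, -2.25, -0.74 and -0.29 on the +/- arrays. The groups did not overlap. The means were -5.33 ± 0.60 in SDHD-ESR and -1.09 ± 0.84 in +/- (SD, n = 4 each), or 2.49% and 46.8% of the pool. Against the pool the SDHD-ESR value passed the limma test (adjusted p = 0.0152), and the difference from +/- was -4.23 (SE 0.47, adjusted p = 0.220, exact permutation p = 0.0286, two-sided, the smallest that 4 arrays against 4 allow). The adjusted p of the direct comparison thus missed the threshold even for the deleted gene.

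None of the 12 member spots passed the limma test between SDHD-ESR and +/- (0 of 12 at an adjusted p of 0.05 or less, where 0.0% of 26921 spots passed), and the smallest adjusted p among them was 0.989. At an unadjusted p of 0.05 or less there were also 0 of 12, where 4.87% of all spots were past it. Sod1, Sod2 and Gpx1 gave ratios of almost exactly 0 on most arrays and carry little information. Over the other 7 genes, by gene mean, 5 differences were above 0 and 2, those of Hmox1 and Nqo1, below, with a median of 0.14, against a median of -0.04 and 42.9% above 0 over all 18579 genes tested. Nqo1 turned to above 0 with each array centred on its median, and Gclc and Txnrd1 turned to below 0 with SDHD-ESR replicate 1 as deposited. The 9 spots of these genes had 95% intervals that all included 0 and differed in width, the narrowest being that of Gclc at 0.824-fold to 1.34-fold and the widest that of Nqo1 at 0.479-fold to 2.05-fold, so the size of difference that could have been missed is not the same for each gene.

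**Figure D2:**
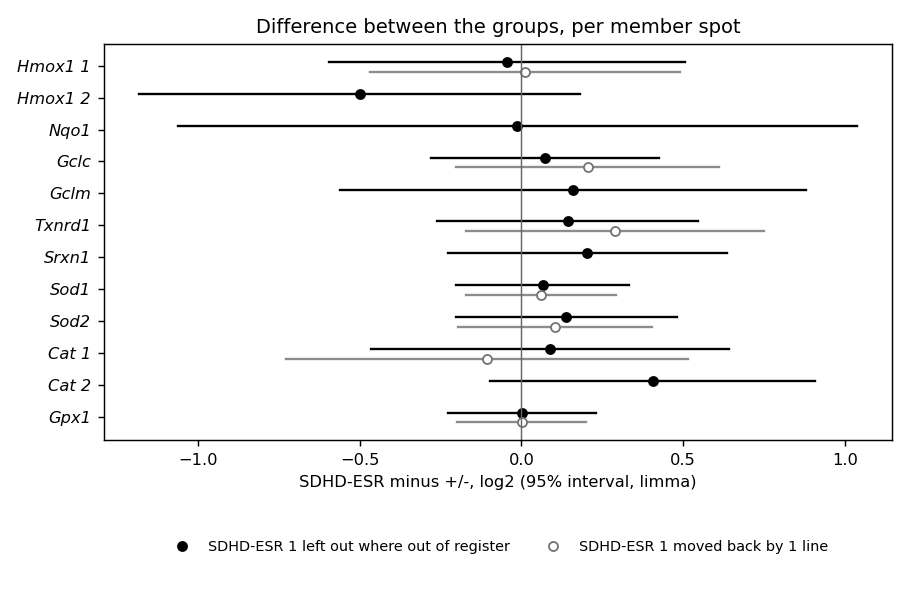
Difference in log2 ratio, SDHD-ESR minus +/-, for each of the 12 member spots with its 95% interval from limma; open points with grey intervals give the fit with SDHD-ESR replicate 1 moved back by 1 line. With the out-of-register values left out, the intervals of the 9 informative spots all include 0, and Gpx1 sits at 0.

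Hmox1 encodes haem oxygenase 1, which breaks haem down to biliverdin, iron and carbon monoxide and is controlled by both NRF2 and BACH1. At its spot in the aligned part the log2 ratio was -1.02, -0.13, -0.75 and -0.64 in SDHD-ESR, against -0.80, 0.06, 0.36 and -0.16 in +/-. All 4 SDHD-ESR arrays lay below the pool, and the groups overlapped through +/- replicate 1 and SDHD-ESR replicate 2. The mean was -0.64 ± 0.37 in SDHD-ESR and -0.14 ± 0.49 in +/- (SD, n = 4 each), a difference of -0.50 (SE 0.29), or 0.707-fold with an interval of 0.441 to 1.13. The difference did not pass the test (limma adjusted p = 0.989, exact permutation p = 0.200, two-sided). The other Hmox1 spot, in the shifted part, gave -0.29, -0.43 and -0.16 in SDHD-ESR replicates 2 to 4, against -0.73, -0.37, 0.13 and -0.04 in +/-. There the groups overlapped, with a difference of -0.04 (SE 0.23, interval -0.60 to 0.51). For SDHD-ESR replicate 1 the deposited line gave -0.48 and the line after it -0.07, and the difference was -0.09 with the deposited value and 0.01 with the value moved back. Macrophages, which recycle haem, are rich in this enzyme, and 13 of 13 measured macrophage markers had a difference below 0, with a median of -0.60. Of their 26 spots, 14 were below 0 at an unadjusted p of 0.05 or less, where 3.07% of all spots were. C1qc alone has 10 of the 26 spots, so this count is not one of separate genes. The median over that list lay between -0.76 and -0.19 on the SDHD-ESR arrays and between -0.13 and 0.36 on the +/- arrays, and its part in the Hmox1 values was not tested.

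Nqo1 encodes the quinone reductase most often used as a readout of NRF2 activity. Its log2 ratio was -0.53, -0.03, -0.92 and 0.70 in SDHD-ESR, against -0.82, -0.56, -0.06 and 0.72 in +/-. Both groups spanned the pool, and each had its highest value on its replicate 4. The means were -0.19 ± 0.70 and -0.18 ± 0.68 (SD, n = 4 each), and the difference was -0.01 (SE 0.45, interval -1.06 to 1.04, exact permutation p = 0.971, two-sided). This was the widest interval of the members, and a difference of 2-fold either way lies at its edges.

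Gclc and Gclm encode the catalytic and the modifier subunit of glutamate-cysteine ligase, the rate-limiting enzyme of glutathione synthesis. Gclc had log2 ratios of 0.54, 0.37 and 0.23 in SDHD-ESR replicates 2 to 4, against 0.21, 0.11, 0.46 and 0.44 in +/-. Every array with a value lay above the pool, and the groups overlapped. The mean was 0.38 ± 0.15 in SDHD-ESR (n = 3) and 0.31 ± 0.17 in +/- (n = 4, both SD), with a difference of 0.07 (SE 0.15, exact permutation p = 0.571, two-sided), the narrowest interval of the informative spots at -0.28 to 0.43. For SDHD-ESR replicate 1 the deposited line gave -0.22 and the line after it 0.90. The difference was -0.08 with the deposited value and 0.20 with the value moved back, so the place of 1 value set its sign.

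Gclm had log2 ratios of 0.52, -0.24, -0.26 and -0.51 in SDHD-ESR, against -0.51, -0.84, -0.04 and 0.25 in +/-. The high value among SDHD-ESR arrays was that of replicate 1, in the aligned part. The difference was 0.16 (SE 0.31, interval -0.56 to 0.88, exact permutation p = 0.571, two-sided), and it was -0.05 without SDHD-ESR replicate 1. Against the pool, Gclc was above it on all 7 arrays with a value, and Gclm on 1 of 4 SDHD-ESR arrays and 1 of 4 +/- arrays.

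Txnrd1 encodes cytosolic thioredoxin reductase, a selenoprotein that returns oxidised thioredoxin to its reduced form. Its log2 ratio was 0.68, 0.19 and 0.24 in SDHD-ESR replicates 2 to 4, against 0.07, 0.15, 0.29 and 0.38 in +/-. All arrays with a value lay above the pool, and SDHD-ESR replicate 2 stood highest. The difference was 0.14 (SE 0.17, interval -0.26 to 0.55, exact permutation p = 0.486, two-sided). The deposited line of SDHD-ESR replicate 1 gave -3.46 and the line after it 0.95. With the deposited value the difference was -0.81, and with the value moved back it was 0.29 (exact permutation p = 0.257, two-sided), so a value that belongs to another spot would have turned the direction of this gene.

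Srxn1 encodes sulfiredoxin, which repairs overoxidised peroxiredoxins. Its log2 ratio was 0.20, -0.10, 0.27 and 0.44 in SDHD-ESR, against -0.21, -0.09, -0.12 and 0.42 in +/-. In SDHD-ESR 3 of 4 arrays lay above the pool, and in +/- 1 of 4. The mean of SDHD-ESR was 0.20 ± 0.23 and that of +/- lay within 0.01 of 0 with an SD of 0.29 (n = 4 each). The difference was 0.20 (SE 0.18, interval -0.23 to 0.64, exact permutation p = 0.314, two-sided).

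Cat encodes catalase, the peroxisomal enzyme that splits hydrogen peroxide. At the spot in the aligned part its log2 ratio was 1.38, 1.38, 0.57 and 0.87 in SDHD-ESR, against 0.46, 0.73, 0.54 and 0.84 in +/-. All 8 arrays lay above the +/+ pool, as did 9.97% of all spots, and the 2 highest values were those of SDHD-ESR replicates 1 and 2. The mean was 1.05 ± 0.40 in SDHD-ESR and 0.64 ± 0.18 in +/- (SD, n = 4 each), or 2.07-fold and 1.56-fold of the pool. The difference between them was 0.41 (SE 0.21), 1.33-fold with an interval of 0.935 to 1.88, and it did not pass the test (limma adjusted p = 0.989, exact permutation p = 0.114, two-sided).

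The other Cat spot, in the shifted part, gave smaller ratios. They were 0.77, 0.30 and 0.03 in SDHD-ESR replicates 2 to 4, against 0.09, 0.14, 0.24 and 0.64 in +/-. All lay above the pool and the groups overlapped, with a difference of 0.09 (SE 0.23, interval -0.46 to 0.64). The deposited line of SDHD-ESR replicate 1 held a whole number, treated as missing, and with the moved-back value of -0.42 the difference was -0.11. The 2 spots of Cat therefore shared the side of the pool on the arrays used but not the size of the ratio.

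**Figure D3:**
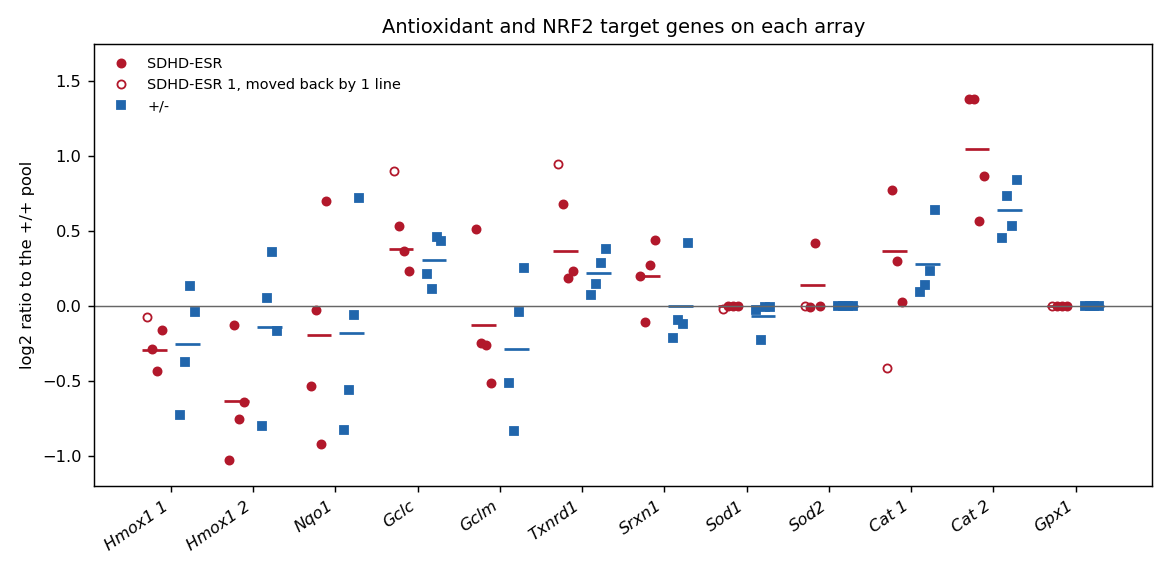
Log2 ratio to the +/+ pool of each member spot on every array, SDHD-ESR (circles) left of +/- (squares), with group means as lines; open circles are values of SDHD-ESR replicate 1 moved back by 1 line, which enter no mean. Cat at its aligned spot lies between 0.57 and 1.38 in SDHD-ESR and between 0.46 and 0.84 in +/-, and Gpx1 lies at 0 on every array.

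Sod1 and Sod2 encode the cytosolic and the mitochondrial superoxide dismutase, and Gpx1 encodes the cytosolic glutathione peroxidase. Sod1 was within 0.01 of 0 on 5 arrays. In +/- it read -0.03 on replicate 1 and -0.23 on replicate 2, and the difference was 0.07 (SE 0.11, exact permutation p = 0.457, two-sided). Its groups did not overlap, by a gap of less than 0.01. With the deposited value of SDHD-ESR replicate 1, which was 0.81 and belongs to another spot, the difference was 0.27 and the exact permutation p 0.0286 (two-sided). With the value moved back, -0.02, the difference was 0.06. Sod2 was within 0.01 of 0 on 6 arrays and read 0.42 on SDHD-ESR replicate 3, a difference of 0.14 (SE 0.14). The difference was 0.15 with the deposited value of SDHD-ESR replicate 1, which was 0.19. It was 0.10 with the value moved back, which lay within 0.01 of 0. Gpx1 was within 0.01 of 0 on all 7 arrays used and with the moved-back value of SDHD-ESR replicate 1, whereas the deposited value of 1.01 gave a difference of 0.25. Over the array, 550 named spots (1.67%) were this close to 0 on at least 6 of the 7 arrays other than SDHD-ESR replicate 1. Spot intensities were not used here, so whether such ratios mark an equal level or a ceiling of the signal was not tested, and no direction is read from these 3 genes.

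Against the +/+ pool no member spot passed at an adjusted p of 0.05 or less in SDHD-ESR (0 of 12, where 0.0297% of spots passed) or in +/- (0 of 12, where 0.0% passed). The smallest adjusted p was that of the aligned Cat spot in both groups, 0.0802 in SDHD-ESR and 0.101 in +/-. At an unadjusted p of 0.05 or less, 3 member spots were above the pool in SDHD-ESR, where 11.7% of all spots were: that Cat spot, Gclc (adjusted p = 0.168) and Txnrd1 (adjusted p = 0.207). The aligned Hmox1 spot was below it (adjusted p = 0.184), where 7.01% of all spots were. In +/- there were 2 above the pool, Cat and Gclc (adjusted p = 0.151), where 16.8% of all spots were, and 0 below, where 5.18% were. Both groups share the one pool, and dyes were not swapped, so a dye effect of a probe cannot be told apart from a difference to the pool. None of the 9 informative spots had groups that did not overlap, whereas 2.79% of spots with 4 arrays against 4 did not overlap, and 3.76% of those with 3 against 4.

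The first and the second slide, each with 2 SDHD-ESR and 2 +/- arrays (replicates 1 and 2 together, and 3 and 4 together), gave opposite signs. Over all spots the first slide had a median difference of 0.27 and the second one of -0.34, and 82.1% of spots had the higher difference on the first. The 9 informative member spots did the same, with medians of 0.41 and -0.27, and 8 of 9 were higher on the first slide. Gclm had differences of 0.81 and -0.49 on the first and second slide, Nqo1 of 0.41 and -0.44, and the aligned Cat spot of 0.78 and 0.03. Srxn1 was the exception, with 0.20 and 0.21. For Gclc, Txnrd1 and the shifted spots of Hmox1 and Cat, the value of the first slide rests on SDHD-ESR replicate 2 alone. The aligned Hmox1 spot was below 0 on both, at -0.20 and -0.79. The array medians over named spots ran with this, at 0.01, 0.15, -0.11 and 0.05 in SDHD-ESR and -0.20, -0.06, 0.23 and 0.36 in +/-, and their part in the members' values was not tested.

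**Figure D4:**
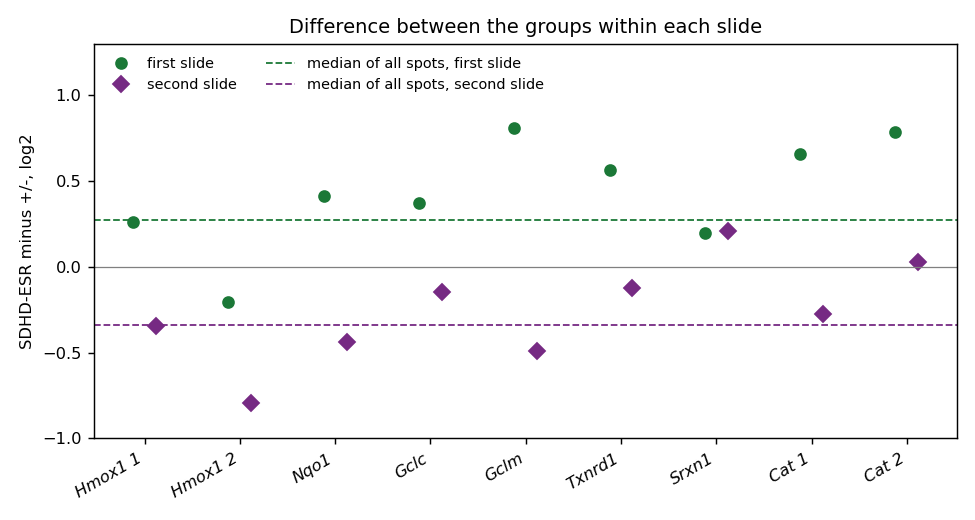
Difference in log2 ratio, SDHD-ESR minus +/-, within the first and within the second slide for the 9 informative member spots, with the medians of all spots, 0.27 and -0.34, for reference. Of the 9 spots, 8 are higher on the first slide, and Srxn1 is level at 0.20 and 0.21.

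The regulators of the pathway did not pass the test either. Nfe2l2 itself differed by -0.07 and Keap1 by -0.26 (SE 0.15, exact permutation p = 0.143, two-sided). Keap1 read -0.20, -0.17, -0.10 and 0.00 in SDHD-ESR, against 0.07, -0.19, 0.41 and 0.28 in +/-, so the groups overlapped through +/- replicate 2. Bach1 differed by -0.25, and the small MAF genes Mafg, Maff and Mafk by 0.12, -0.29 and -0.10. Cul3 and Rbx1, parts of the ubiquitin ligase that KEAP1 serves, differed by 0.23 and 0.17, and Sqstm1, whose protein p62 binds KEAP1, by 0.03. Of the 9 regulators measured, 4 had a difference above 0 and 5 below.

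Across 7 wider lists of the pathway, from regulators through glutathione, thioredoxin, superoxide, NADPH supply and detoxification to haem and iron handling, 82 of 93 genes were measured. Of these, 44 had a difference above 0 and 38 below, with a median of 0.00, against -0.04 over all genes. None of their 146 spots passed in the direct comparison or against the pool. At an unadjusted p of 0.05 or less there were 2 spots above and 3 below 0, where 1.79% and 3.07% of all spots were. In 11 of the genes, Gpx4, Prdx2, Me1, Fth1 and Ftl1 among them, the ratio was within 0.01 of 0 on at least 4 arrays. By list, the median difference was -0.07 for the regulators, -0.01 for glutathione synthesis and use (10 above 0, 11 below), 0.00 for the thioredoxin and peroxiredoxin system (9 and 8), and 0.03 for detoxification and transport (8 and 6). It was 0.00 for NADPH supply (4 and 2) and 0.00 for haem and iron handling (6 and 5). The list named superoxide dismutation had a median of 0.23, which was 0.012 without SDHD-ESR replicate 1. Its 4 genes, Sod3, Ccs, Nox4 and Cyba, differed by 0.05, 0.46, 0.41 and -0.58. Nox4 and Cyba encode parts of NADPH oxidases, which form superoxide, so this median does not describe superoxide removal alone.

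The wider genes with the smallest p on each side did not pass the test either, all with an adjusted p of 0.989. Mthfd2, a mitochondrial folate enzyme from the list of NADPH supply, read 0.49, 0.43 and 0.72 in SDHD-ESR replicates 2 to 4, against -0.10, 0.22, 0.27 and 0.22 in +/-. Its groups did not overlap, as was so for 3.76% of all spots with 3 arrays against 4. The difference was 0.39 (SE 0.15, exact permutation p = 0.0286, two-sided, the smallest that 3 arrays against 4 allow). Glo1, the glyoxalase that uses glutathione to clear methylglyoxal, differed by 0.52 (SE 0.21). The next in this direction, Nnt, Chac1 and Nqo2, differed by 0.26, 0.51 and 0.23 as gene means. Nnt and Nqo2 have 2 spots each and were ranked by the spot with the smaller p, which differed by 0.79 and 0.41. The 2 spots of Nnt were thus far apart, and its place in this order rests on 1 of them.

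On the other side stood Cyba, which encodes a membrane subunit of NADPH oxidases, that of phagocytes among them. It read -0.54, -0.33, -0.64 and -0.41 in SDHD-ESR, against -0.05, -0.24, 0.30 and 0.40 in +/-. These are means of 2 spots, except on SDHD-ESR replicate 1, where only the aligned spot has a value. The groups of Cyba did not overlap in these gene means. Among single spots with 4 arrays against 4, 2.79% did not overlap, a share that was not taken over gene means. The difference was -0.58 (exact permutation p = 0.0286, two-sided, the smallest that 4 arrays against 4 allow). Slc40a1, the iron exporter ferroportin, differed by -0.80 (SE 0.33, exact permutation p = 0.0571, two-sided), with -1.17, 0.37, -0.28 and 0.11 in SDHD-ESR against 0.19, 0.66, 0.68 and 0.73 in +/-. Gstm2, a glutathione transferase, Txnip, the thioredoxin inhibitor, and Blvra, biliverdin reductase, differed by -0.44, -0.47 and -0.41. Cyba and Slc40a1 are strongly expressed in macrophages, whose markers had the differences below 0 given above, and the part of these cells in the 2 differences was not tested.

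**Figure D5:**
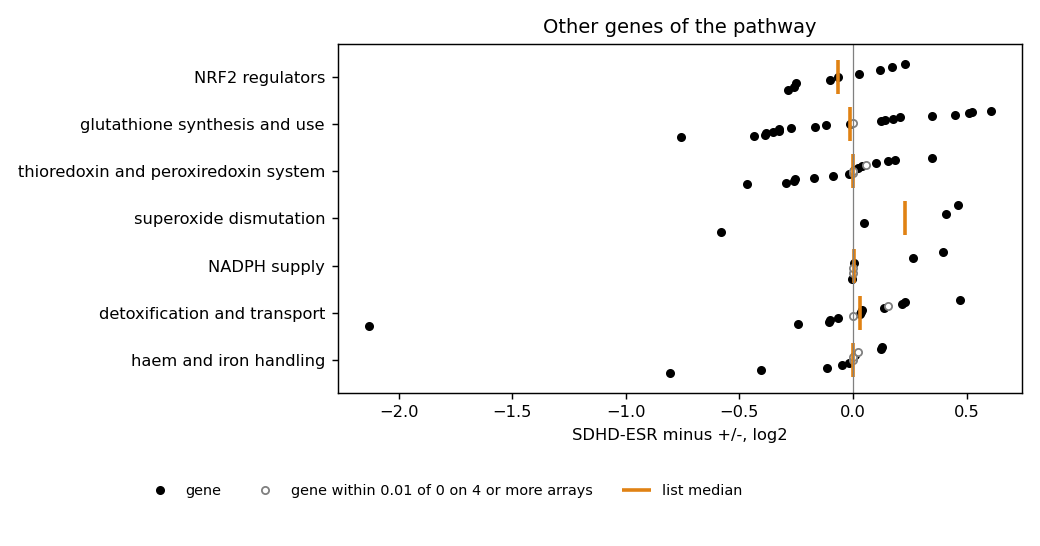
Difference in log2 ratio, SDHD-ESR minus +/-, of each measured gene of the 7 wider lists (points, open where the ratio was within 0.01 of 0 on at least 4 arrays) with each list's median. List medians run between -0.07 and 0.23, and the points of each list lie on both sides of 0.

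Markers of the tissue and of other cells in it were measured beside these genes. Of 11 measured chromaffin markers, 6, Th and Dbh among them, were within 0.01 of 0 on at least 4 arrays, as were 6 of 10 cortex markers, Star and Cyp11b1 among them, so ratios to the pool do not tell how much medulla or cortex each sample held. The markers not near 0 are given in full, a choice made after their values were seen. Among the chromaffin markers Pnmt, the enzyme of adrenaline synthesis, differed by 0.52, and Ddc, Slc18a2, Phox2a and Slc18a1 by -0.47, -0.48, -0.40 and -0.05. Ddc, Slc18a2 and Phox2a were lowest on SDHD-ESR replicate 1, at -0.95, -1.25 and -0.44. On SDHD-ESR replicates 2 to 4 Ddc read 0.17, 0.23 and 0.24, Slc18a2 0.25, 0.08 and -0.40, and Phox2a 0.38, 0.48 and 0.05. These 3 differences thus rest in large part on 1 array. Among the cortex markers Mc2r, the corticotropin receptor, differed by 0.55 (exact permutation p = 0.0571, two-sided), Cyp21a1 by 0.26, Scarb1 by 0.16 and Cyp11b2 by -0.79. None of them passed the test. Endothelial markers were below 0 in 9 of 9 genes (median difference -0.40, list medians of -0.25 to 0.26 on the SDHD-ESR arrays and 0.00 to 0.35 on the +/- arrays). Adipocyte markers were below 0 in 9 of 9 (median -0.92, -1.80 to 0.62 on the SDHD-ESR arrays and -1.55 to 1.02 on the +/- arrays). Of 6 measured erythrocyte markers, 2 had a difference above 0 and 4 below (median -0.18), and 3 were within 0.01 of 0 on at least 4 arrays. Their part in the members' values was not tested.

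Among the 82 genes of the wider lists, Blvrb, a second biliverdin reductase, Mgst1, a microsomal glutathione transferase, and Cbr3, a carbonyl reductase, lay nearest to the members' median profile, with a mean absolute difference of 0.0866, 0.0893 and 0.132 on the log2 scale over the arrays. That profile, over the 7 informative genes, was 0.20, -0.03, 0.19 and 0.24 in SDHD-ESR and -0.21, -0.09, 0.25 and 0.42 in +/-. On SDHD-ESR replicate 1 it lacks Gclc and Txnrd1, which have no value there, and Blvrb has none there either.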

How the data were processed

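Adrenal medulla RNA was labelled and hybridised to 2-colour Agilent mouse arrays that were scanned with a GenePix scanner, per the labels and the study's methods. The deposited values are log ratios of Cy5 to Cy3 per spot. No source used here gives the background correction, the dye normalization or the log base. Gene names were placed through the array's grid, under which copies of 1 accession had a median SD of 0.113 (370 accessions), against 0.705 in plain row order (327 accessions). Signs were turned, whole numbers set to missing, and the out-of-register values of SDHD-ESR replicate 1 left out. Slides were read from the array names in the labels.

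The 26921 named spots with 3 or more values per group were fitted with limma 3.58.1 in R 4.3.3, with group means and Benjamini-Hochberg adjustment over all spots at 0.05, and tested on simulated data. Single values were tested by exact permutation over 35 splits. No p was adjusted over the members alone. Each array is 1 replicate of 2 pooled mice. The number of arrays limits the precision. All members are named, with Sdhd, the regulators, up to 5 genes at each end of the wider lists by p, and the 3 genes nearest in profile. The members and lists were chosen with earlier results of these data known. Alternatives covered the register, whole numbers, scaling, filter, block by slide and by replicate, gene means, the methods' t-test and leaving out each array. Python 3.11.15 with numpy 2.4.6, pandas 2.3.3, scipy 1.17.1 and matplotlib 3.10.9 was used for the rest.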

Additional observations from a re-analysis of the deposited data

Results flagged for a closer look

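Of 19 sets of 4 arrays examined among the members and Sdhd, 1 had an array far from the others: Sod1 in +/-, where replicate 2 read -0.23 and the other 3 arrays lay between -0.03 and 0. The gap made up 0.895 of the range. Chance alone gives about 1 such set in 20.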

How the results depend on the processing

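No member passed the limma test between SDHD-ESR and +/- under any alternative run. Over all spots, 0 passed there, with 1 after centring each array on its median and 1 with gene means. Against the +/+ pool the 8 spots that passed in SDHD-ESR became 77 with the shifted lines of SDHD-ESR replicate 1 moved back (59 higher, 18 lower), 758 after centring, 1218 after quantile normalization, 49 with values on all arrays only, 1 with at least 2 values in each group, 2 with slide as a block, 5 with gene means, 1 with the methods' t-test, and 0 to 3 without 1 array. In +/- the 0 spots became 1796 after quantile normalization and 0 to 2 without 1 array. Higher calls made up 489 of 758, 916 of 1218 and 6 of 8. The aligned Cat spot became 1 member past the threshold in SDHD-ESR after centring, after quantile normalization and with values on all arrays only (adjusted p = 0.0316, 0.0292 and 0.0414, range over alternatives 0.0292 to 0.346), and 1 in +/- after quantile normalization (0.0365, range 0.0365 to 0.327). Without 1 array the members that passed stayed at 0 to 0.

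With the replicate number as a block, 1 spot passed in SDHD-ESR against the pool; same-numbered arrays did not deviate together (correlation -0.01 to 0.07), and no member call changed. Sdhd in SDHD-ESR against the pool was -5.33 with an adjusted p of 0.318 by the methods' t-test, and -5.48 to -5.04 without 1 array, past the threshold no longer without SDHD-ESR replicate 1, 3 or 4 or +/- replicate 1 or 3. Nqo1 turned to 0.043 after centring, Gclc to -0.076 and Txnrd1 to -0.81 with SDHD-ESR replicate 1 as deposited. Without 1 array the difference ran from -0.31 to 0.29 for Nqo1, -0.0048 to 0.15 for Gclc and -0.054 to 0.34 for Gclm. It ran from -0.013 to 0.23 for Txnrd1 and -0.0014 to 0.21 for Sod2. All of these turned in sign. The sign was kept for Hmox1 (-0.55 to -0.21), Srxn1 (0.12 to 0.34) and Cat (0.19 to 0.51). For Hmox1 and Cat these are gene means, in which SDHD-ESR replicate 1 has a value at the aligned spot only. The gene-mean difference of Cat was 0.37, and 0.15 with the shifted lines of that array moved back. For Hmox1 it was -0.36, and -0.24 with those lines moved back. The glutathione list's median was -0.35 with values on all arrays only, and that of superoxide dismutation 0.012 to 0.33 without 1 array, lowest without SDHD-ESR replicate 1. Beyond the register and the arrays, the cause of these moves was not tested.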
